A study of Mus musculus with 6 samples.

Results

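The genes described here encode the carriers that move amino acids, small peptides and monocarboxylates such as lactate across the membranes of cells and lysosomes. They were chosen by symbol: every gene of the families Slc1, Slc3, Slc6, Slc7, Slc15, Slc16, Slc36, Slc38 and Slc43 that an array probe set named alone, which gave 76 of the 18193 genes named on the array. Each gene was read from its brightest probe set by the mean of all 6 arrays, a choice that does not look at the groups. RNA came from the epididymal white fat pads of 8-week-old mice of the strain C57BL/6. In 3 mice, labelled CNOT3KO, the gene for CNOT3 was deleted by a Cre recombinase driven in adipocytes by the Adiponectin promoter, and the other 3 mice were labelled wild type (WT). The labels used here do not say whether the WT mice carried a floxed Cnot3 allele or the Cre transgene. CNOT3 is a subunit of CCR4-NOT, a complex that removes poly(A) tails from mRNAs, and the comparison asks which transporter mRNAs of the fat pad differ when adipocytes lack it.

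Amino acid carriers work in relays. Sodium-coupled carriers of the Slc1 and Slc38 families load the cell with glutamate, glutamine and alanine, and heteromeric exchangers, made of an Slc3 heavy chain and an Slc7 light chain, trade those amino acids for leucine, cystine or arginine. Carriers of the Slc36, Slc38 and Slc15 families on lysosomes release amino acids and peptides from digested protein, close to the kinase complex mTORC1 that senses them. Monocarboxylate carriers of the Slc16 family move lactate, pyruvate and ketone bodies, and white adipocytes are known to release lactate. In white fat the small neutral amino acid carrier Slc7a10 is known as a marker of white adipocytes.

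Signals are linear MAS5 intensities, which compare one probe set between mice but not one gene with another. The 6 arrays had median signals from 82.1 to 92.9, and precision is limited by how many arrays there are. Fold and percent values below are on the scale of log2(signal + 22.5), an added constant that damps the noise of dim probe sets, and a gene was called higher or lower where limma's adjusted p over all tested genes was under 0.05. The titles name separate mice, with 1 array each, so the spread between arrays holds that between animals together with that of the measurement. Cnot3 itself read 194, 229 and 179 in CNOT3KO mice, against 305, 293 and 305 in WT mice, so the groups did not overlap (log2 difference -0.54, SE 0.14, limma adjusted p = 0.0131). Its second probe set averaged 227 in CNOT3KO mice and 264 in WT mice, with a log2 difference of -0.19 that did not pass. The 8 adipocyte markers with a probe set, Adipoq and Fabp4 among them, were all bright enough to be tested, with a lowest mean signal of 6357 for Pparg. Where these probe sets lie relative to the deleted part of Cnot3 was not analysed here, and the pad's cells other than adipocytes keep the gene.

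The carriers did not move as one block: the glutamate carriers Slc1a1 and Slc1a3, the glutamine carrier Slc1a5 and the monocarboxylate carriers Slc16a7 and Slc16a4 were lower in CNOT3KO fat, while the lysosomal peptide carrier Slc15a3, the arginine exchanger light chains Slc7a6 and Slc7a7 and the proton-coupled carriers Slc36a1 and Slc36a2 were higher. Among these carriers, Slc1a1 was tested only through its WT signal, and the second probe sets of Slc16a4, Slc7a6 and Slc7a7 did not pass. Of the 76 genes 52 were bright enough to be tested, and 18 of these passed (34.6%), against 40.1% of all 12769 tested genes. The calls comprised 9 higher genes (17.3%, against 23.2% of all tested genes) and 9 lower genes (17.3%, against 16.9%). The share of called transporter genes was therefore near that of the tested genes at large, and the results below are about which carriers changed and by how much. A call with a change of at least 2-fold was made for 8 of the 52 (15.4%), against 9.82% of all tested genes. The median log2 difference was -0.07 over the 52 and 0.02 over all tested genes. In 18 of the 52 genes the 3 CNOT3KO values and the 3 WT values did not overlap (34.6%), against 51.7% of all tested genes. With median centring of the arrays, which moved all log2 differences by -0.10, the split turned to 6 higher and 12 lower, and that of all genes to 2318 higher and 2800 lower, against 2959 and 2156 without it.

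**Figure D1:**
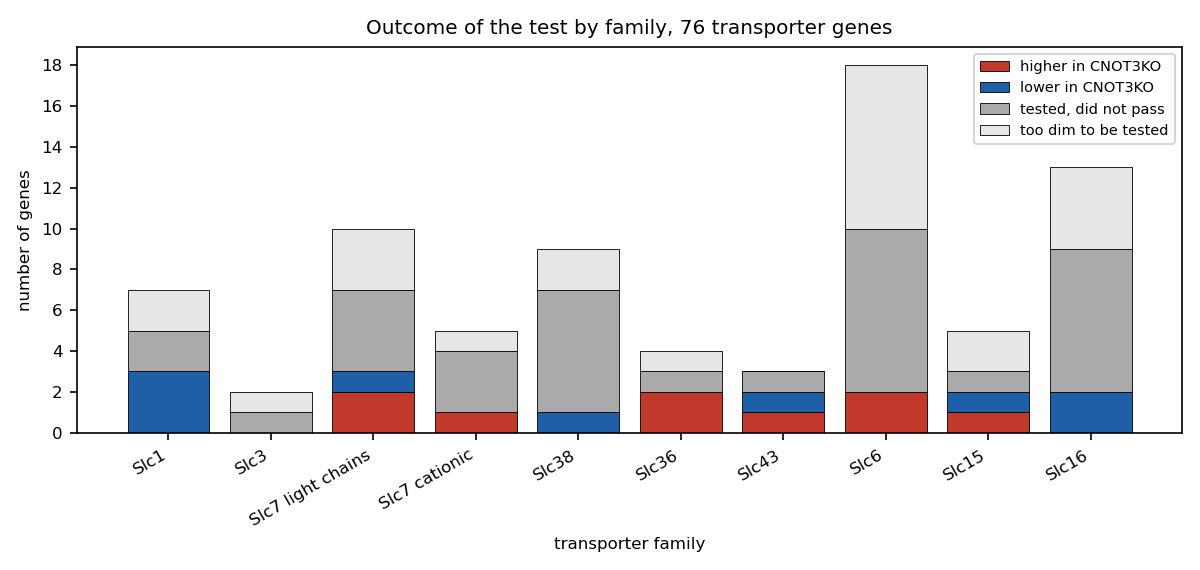
Number of transporter genes (vertical axis) in each family (horizontal axis) that were higher in CNOT3KO, lower in CNOT3KO, tested without passing, or too dim to be tested. Slc1 holds 3 lower genes and 0 higher ones, Slc36 holds 2 higher genes and 0 lower ones, and Slc6 holds the most genes that were too dim, 8 of 18. Slc1a1, among the lower genes of Slc1, was tested only through its WT signal.

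**Figure D2:**
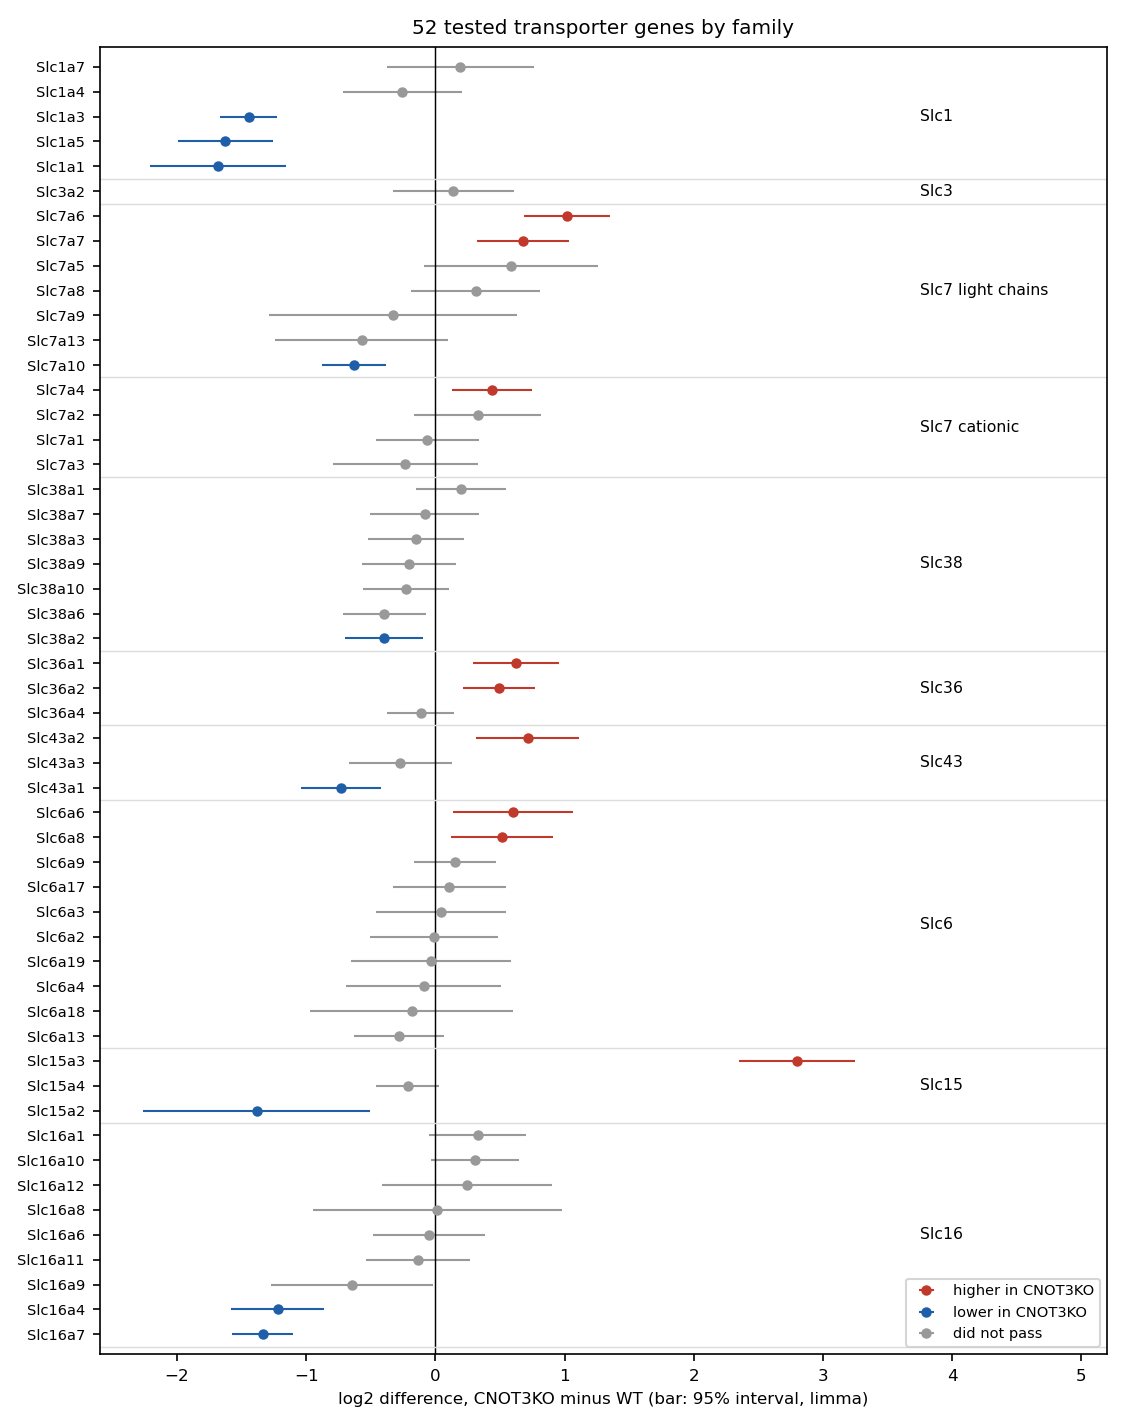
Log2 difference, CNOT3KO minus WT (horizontal axis), with its 95% interval from limma, for the 52 tested genes ordered by family and size. Slc15a3 lies at 2.80, Slc1a1, Slc1a5, Slc1a3, Slc15a2, Slc16a7 and Slc16a4 lie between -1.68 and -1.22, and the other tested genes lie between -0.73 and 1.02.

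Marker genes of several cell types of the pad differed between the groups. Of 10 macrophage markers 9 were higher, and their summed signal ranged from 39571 to 57070 in CNOT3KO mice, against 21145 to 27244 in WT mice. All 9 endothelial markers were lower, with sums from 3469 to 4198 in CNOT3KO mice and from 8311 to 9448 in WT mice. Of 6 tested smooth muscle and pericyte markers 4 were lower, with sums from 7377 to 10276 in CNOT3KO mice and from 12798 to 19911 in WT mice, and 3 of 6 mesothelial markers were lower, with sums from 2126 to 3311 in CNOT3KO mice and from 3857 to 4891 in WT mice. Of the 8 adipocyte markers 2 were lower, Cidec and Lep, and the sums overlapped, from 133981 to 163559 in CNOT3KO mice and from 147585 to 189694 in WT mice. Of 6 tested lymphocyte markers 1 was higher (Klrd1) and 2 were lower (Cd79b and Ms4a1, tested only through their WT signal), while the sums overlapped, from 543 to 866 in CNOT3KO mice and from 532 to 1002 in WT mice. Of the 7 epididymis markers with a probe set 6 were too dim to be tested, their sums overlapped, and the tested one, Rnase10, was higher (log2 0.72). Of 5 adipose progenitor markers 1 was higher and 1 lower, with sums from 25100.4 to 31753 in CNOT3KO mice and from 24879 to 32144 in WT mice. The sums of both erythroid markers also overlapped, from 115 to 233 in CNOT3KO mice and from 195 to 339 in WT mice. No marker in these lists was at the lowest value, 1, on every array. In whole tissue fewer cells of a type and less RNA per cell cannot be told apart. The part of these marker differences in the transporter results was not tested.

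**Figure D3:**
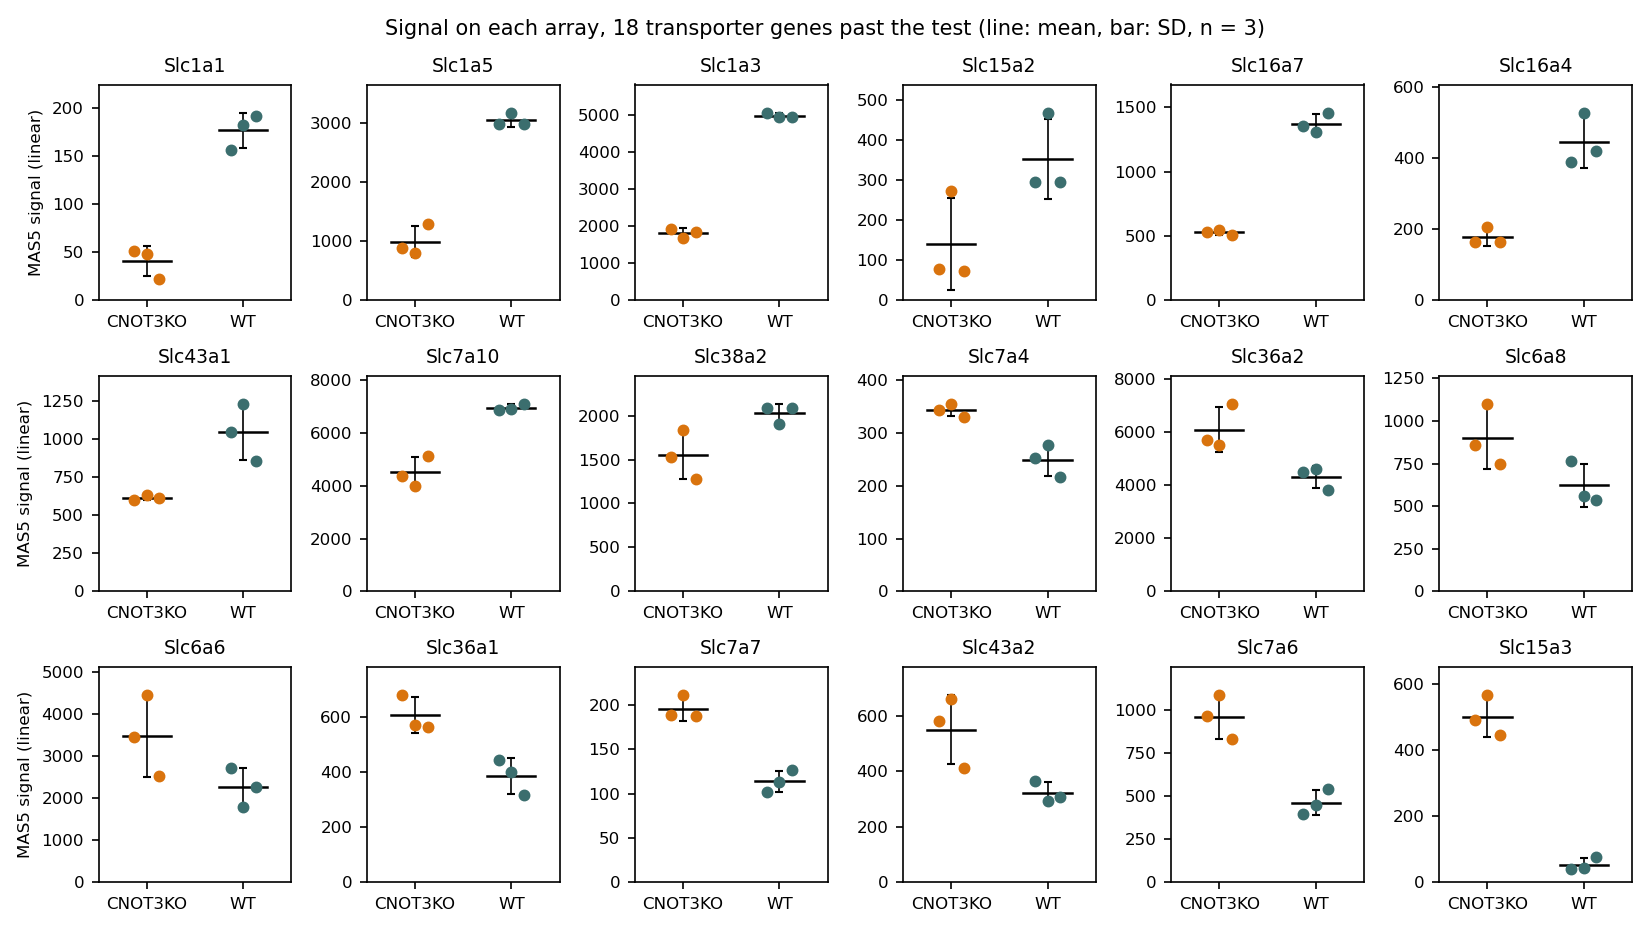
MAS5 signal on a linear axis from 0 (vertical axis) on each CNOT3KO and WT array for the 18 transporter genes past the test, ordered from the most negative to the most positive log2 difference. Points are mice, lines are means and bars are SD with n = 3. The groups overlap in Slc6a6 and Slc6a8 and in no other panel.

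The Slc1 family holds high-affinity glutamate carriers and exchangers of neutral amino acids. Of 5 tested members 3 were lower and 0 were higher, with a median log2 difference of -1.45. Slc1a3, a glutamate and aspartate carrier best known from astrocytes, read 1934, 1675 and 1855 in CNOT3KO mice, against 5071, 4957 and 4949 in WT mice. Every CNOT3KO mouse was far below every WT mouse, and the level was 36.7% of WT (log2 difference -1.45, SE 0.10, limma adjusted p = 1.5e-05). All 6 of its probe sets were lower, with log2 differences from -1.79 to -1.22. Slc1a5, the exchanger that brings glutamine into cells, read 886, 793 and 1293 in CNOT3KO mice, against 2982, 3167 and 2972 in WT mice. The groups stood well apart, at 32.4% of WT (log2 difference -1.63, SE 0.16, limma adjusted p = 9.5e-05), and the second probe set gave -1.44. Slc1a1, a glutamate carrier that also takes up cysteine, read 51.7, 48.1 and 22.7 in CNOT3KO mice, against 157, 182 and 192 in WT mice. Its log2 difference was -1.68 (SE 0.23, limma adjusted p = 0.0005) and -1.58 by its second tested probe set. The CNOT3KO means of 40.9 and 23.0 lay below the filter of 51.6, so both probe sets of Slc1a1 were tested only through their WT signal, and the size of its fall depended on the constant (log2 -1.04 with a constant at the median of all values). Slc1a4, which exchanges serine and alanine, averaged 84.2 ± 21.96 in CNOT3KO mice and 103 ± 1.65 in WT mice (SD, n = 3 each). Slc1a7, a glutamate carrier of the retina, averaged 69.1 ± 8.34 in CNOT3KO mice and 59.6 ± 21.5 in WT mice (SD, n = 3 each). Neither passed.

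The promoters of both glutamate carriers are shown because both genes fell by all their tested probe sets. The probe sets of Slc1a1 were tested only through their WT signal, so their agreement is no check of its fall. Each run covers 250 bases before the gene's start and 50 after it, from RefSeq on GRCm38.p6, written in the direction of the gene, and capitals mark the GC box letters GGGCGG on either strand. The Slc1a3 window is chr15:8710758-8711057 on the minus strand and the Slc1a1 window is chr19:28834885-28835184 on the plus strand.
Slc1a3: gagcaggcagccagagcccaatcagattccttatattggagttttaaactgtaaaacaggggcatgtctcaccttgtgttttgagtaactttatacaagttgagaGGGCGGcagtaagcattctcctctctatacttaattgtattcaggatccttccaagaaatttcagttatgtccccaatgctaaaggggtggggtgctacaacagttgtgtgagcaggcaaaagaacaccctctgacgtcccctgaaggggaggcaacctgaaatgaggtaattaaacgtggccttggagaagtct
Slc1a1: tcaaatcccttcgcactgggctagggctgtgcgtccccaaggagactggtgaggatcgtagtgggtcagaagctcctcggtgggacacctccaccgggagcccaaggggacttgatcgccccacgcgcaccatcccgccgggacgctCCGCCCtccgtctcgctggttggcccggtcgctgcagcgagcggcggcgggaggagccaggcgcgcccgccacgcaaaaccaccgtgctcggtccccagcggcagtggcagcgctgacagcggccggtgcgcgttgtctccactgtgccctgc
The windows differ in composition, with 45.3% G and C and 3 CG dinucleotides for Slc1a3, against 70.3% and 32 for Slc1a1. Each holds 1 match to GGGCGG, and neither holds CACGTG, the letters of an E-box, or TGATGNAA, the core of the element that ATF4 and C/EBP factors are known to bind in amino acid response genes. On both strands GGGCGG occurs in 35.7% of the 32851 windows in the table, CACGTG in 7.15% and TGATGNAA in 3.97%. Of the 75 windows that 54 of the 76 genes have, 50.7%, 14.7% and 8.00% hold these motifs, in the same order.

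The heavy chain Slc3a2, which carries most light chains of the Slc7 family to the cell surface, read 3174, 2334 and 4148 in CNOT3KO mice, against 3265, 2245 and 3138 in WT mice. The groups overlapped and the difference did not pass (log2 0.14, 95% interval -0.33 to 0.61). Of 7 tested light chains 2 were higher (28.6%, against 23.2% of all tested genes) and 1 was lower (14.3%, against 16.9%). Slc7a6, which with Slc3a2 exports arginine in exchange for glutamine and sodium, read 960.3, 1085 and 827 in CNOT3KO mice, against 396, 449 and 539 in WT mice. All CNOT3KO mice were above all WT mice, at 2.03-fold (log2 difference 1.02, SE 0.15, limma adjusted p = 0.00064). Its second probe set read 0.30 on the log2 scale and did not pass, and the mean of both gave 0.66. Slc7a7, the related arginine exporter that is mutated in human lysinuric protein intolerance, averaged 196 ± 13.6 in CNOT3KO mice and 114 ± 12.1 in WT mice (SD, n = 3 each; log2 difference 0.68, limma adjusted p = 0.00777). Its second probe set read 0.12, and the mean of both, 0.40, was not called. Slc7a7 is known from macrophages, whose markers were also higher, and a link between these results was not tested.

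Slc7a10, the marker of white adipocytes, read 4379, 4001 and 5135 in CNOT3KO mice, against 6869.7, 6892 and 7111 in WT mice. It is an exchanger of serine, alanine and cysteine and has 1 probe set. No CNOT3KO mouse reached a WT mouse, and the level was 64.5% of WT (log2 difference -0.63, SE 0.11, limma adjusted p = 0.00178). The leucine exchangers Slc7a5 and Slc7a8 did not pass. Slc7a5 averaged 142 ± 30.4 in CNOT3KO mice and 92.4 ± 45.6 in WT mice, and Slc7a8 averaged 379.9 ± 57.4 in CNOT3KO mice and 311 ± 110.3 in WT mice (SD, n = 3 each). Slc7a5 passed without WT mouse 1 (log2 0.86) and Slc7a8 without WT mouse 3 (0.57). The renal light chains Slc7a9 and Slc7a13 had means between 51.8 and 101 in either group and did not pass, although Slc7a13 did without WT mouse 2 (-0.90). The cystine importer Slc7a11 was too dim to be tested, at 35.3, 21.0 and 29.2 in CNOT3KO mice and 5.47, 39.2 and 4.01 in WT mice.

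Cationic amino acid carriers of the Slc7 family take up arginine and lysine without a heavy chain. Slc7a1, the widespread arginine importer, read 645, 627 and 549 in CNOT3KO mice, against 493, 617 and 832 in WT mice. The CNOT3KO values lay within the range of the WT values, and the log2 difference was -0.06 (95% interval -0.46 to 0.34). Slc7a2, the arginine importer known from activated macrophages, averaged 257 ± 75.4 in CNOT3KO mice and 196 ± 34.7 in WT mice (SD, n = 3 each) and passed only without CNOT3KO mouse 3 (log2 0.56). Slc7a3 averaged 60.3 in CNOT3KO mice and 77.0 in WT mice and did not pass. Slc7a4, a relative for which no transport of its own is established, was higher, at 343 ± 12.0 in CNOT3KO mice and 248.5 ± 30.5 in WT mice (SD, n = 3 each; log2 difference 0.44, limma adjusted p = 0.030). Its call was lost without CNOT3KO mouse 1 (0.43) or 2 (0.41) or WT mouse 1 (0.45) or 3 (0.35), and its second probe set, with a WT mean of 40.04 below the filter, was tested only through its CNOT3KO signal (mean 110.4, log2 difference 1.17).

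Sodium-coupled carriers of the Slc38 family concentrate glutamine and alanine in cells. Of 7 tested members 1 was lower (14.3%, against 16.9% of all tested genes) and 0 were higher. Slc38a2, the system A carrier known to be induced when amino acids run short, read 1534, 1832 and 1284 in CNOT3KO mice, against 2089, 1903 and 2089.8 in WT mice. The groups did not overlap, at 75.98% of WT (log2 difference -0.40, limma adjusted p = 0.0406). The call was lost without CNOT3KO mouse 1 (-0.40) or 3 (-0.27) or WT mouse 1 (-0.37), 2 (-0.44) or 3 (-0.37), and with the mouse number as a block (-0.40), while its other probe sets read -0.89, which passed, and -0.15, which did not. Slc38a10, which has the brightest probe set of the family, read 4171, 4438 and 5307 in CNOT3KO mice, against 6095, 5929 and 4361 in WT mice. The groups overlapped (log2 -0.23), it passed without WT mouse 3 (-0.38), and its 6 tested probe sets ranged from -0.39 to 0.31 with 0 calls. Slc38a6 averaged 1210 ± 239 in CNOT3KO mice and 1580.0 ± 119 in WT mice (SD, n = 3 each), just short of the threshold (limma adjusted p = 0.0532), and passed without CNOT3KO mouse 2 (-0.54).

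Slc38a1, another system A carrier, had a log2 difference of 0.20 by its brighter probe set, which did not pass, and of 0.64 by the other, which did. Slc38a9, which reports lysosomal arginine to mTORC1, had 7 tested probe sets that disagreed: 2 were higher (0.80 and 0.86), 1 was lower (-0.59) and 4 did not pass. Its brightest probe set gave -0.20, so these arrays give no direction for the gene. Slc38a7, a lysosomal glutamine carrier, and Slc38a3, a glutamine carrier of liver and kidney, had log2 differences of -0.08 and -0.15 and did not pass.

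Proton-coupled carriers of the Slc36 family move glycine, alanine and proline. Slc36a2, a surface marker of brown and beige adipocytes, read 5683, 5530.2 and 7069 in CNOT3KO mice, against 4492, 4599 and 3831 in WT mice. All CNOT3KO mice were above all WT mice, at 1.41-fold (log2 difference 0.49, SE 0.13, limma adjusted p = 0.0116). Slc36a1, which sits on lysosomes, averaged 605 ± 65.3 in CNOT3KO mice and 387 ± 64.6 in WT mice (SD, n = 3 each), or 1.54-fold (log2 difference 0.62, SE 0.15, limma adjusted p = 0.00889). The groups did not overlap on the array, with a lowest CNOT3KO value of 564 and a highest WT value of 444. Both calls held without any 1 of the 6 mice. Slc36a4, a further carrier of the family on lysosomal membranes, averaged 1072 ± 93.8 in CNOT3KO mice and 1161 ± 98.04 in WT mice (SD, n = 3 each) and did not pass. Slc36a1, Slc36a2 and Slc36a3 are direct neighbours on chromosome 11 in the RefSeq gene table of GRCm38.p6, and the third of them, Slc36a3, was too dim to be tested.

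The Slc36a1 promoter is shown because it holds 2 matches to CACGTG, the palindrome bound by E-box factors, among them the lysosomal regulators TFEB and TFE3. The window is chr11:55204090-55204389 on the plus strand of GRCm38.p6, from RefSeq, with CACGTG in capitals.
Slc36a1: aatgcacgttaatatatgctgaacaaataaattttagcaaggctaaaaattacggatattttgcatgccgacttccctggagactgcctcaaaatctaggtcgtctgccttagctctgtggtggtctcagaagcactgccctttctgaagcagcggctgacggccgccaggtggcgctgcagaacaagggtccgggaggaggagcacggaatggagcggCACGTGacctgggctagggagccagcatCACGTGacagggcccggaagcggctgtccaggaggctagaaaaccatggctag
The matches begin at -31 and -3, counted from the gene's first base as 1 with no 0. Among the 11 called genes with a window in the table, Slc43a1, which was lower, also holds CACGTG, once. Slc7a7 is the only called gene with TGATGNAA, in some of its windows. Among the 24 genes not called that have a window, Slc16a1, Slc16a12, Slc1a7, Slc38a7 and Slc6a3 hold CACGTG and Slc1a4 holds TGATGNAA. A match describes the letters in this window and shows no binding.

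The 3 members of the Slc43 family went in different directions. Slc43a1, a carrier of leucine and other large neutral amino acids, averaged 617 ± 18.5 in CNOT3KO mice and 1048 ± 187 in WT mice (SD, n = 3 each), or 60.3% of WT (log2 difference -0.73, SE 0.14, limma adjusted p = 0.00273). Slc43a2, which carries the same amino acids, averaged 551 ± 126 in CNOT3KO mice and 323 ± 38.4 in WT mice (SD, n = 3 each), or 1.64-fold (log2 difference 0.71, SE 0.18, limma adjusted p = 0.0105). Neither pair of groups overlapped. The second tested probe set of Slc43a2 read 0.19, and with the mean of its probe sets the call was lost (0.32). That mean took in a further probe set too dim to be tested, with a mean signal of 1.76. Slc43a3, a relative known to carry purine nucleobases, read 1853, 2302 and 1474 in CNOT3KO mice, against 1814, 2396 and 2559 in WT mice, with overlapping groups and no call (log2 -0.27).

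The Slc6 family carries transmitters, osmolytes and amino acids with sodium and chloride, and 8 of its 18 genes were too dim to be tested. Of 10 tested members 2 were higher and 0 were lower. Slc6a6, the taurine carrier, read 3453, 4467 and 2531 in CNOT3KO mice, against 2716, 1799.7 and 2275 in WT mice. CNOT3KO mouse 3 lay below WT mouse 1, so the groups overlapped (log2 difference 0.60, SE 0.21, limma adjusted p = 0.0438). The call was lost without CNOT3KO mouse 1 (0.59) or 2 (0.40) or WT mouse 2 (0.45) or 3 (0.61), and with the mouse number as a block (0.60). Its second tested probe set was higher by 0.91. Slc6a8, the creatine carrier, averaged 902 ± 182 in CNOT3KO mice and 623 ± 126 in WT mice (SD, n = 3 each; log2 difference 0.52, limma adjusted p = 0.0414). Its groups overlapped as well, and the call was lost without CNOT3KO mouse 1 (0.54) or 2 (0.37) or WT mouse 2 (0.45) or 3 (0.42), although its second probe set was higher by 1.26. The calls of Slc6a6, Slc6a8 and Slc7a4 were also lost with median centring of the arrays (0.50, 0.42 and 0.34).

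Slc6a13, which carries GABA and taurine, averaged 1134 ± 120 in CNOT3KO mice and 1398 ± 305 in WT mice (SD, n = 3 each) and did not pass. The glycine carrier Slc6a9 averaged 359 ± 50.6 in CNOT3KO mice and 319 ± 21.2 in WT mice (SD, n = 3 each) and did not pass. The noradrenaline, dopamine and serotonin carriers Slc6a2, Slc6a3 and Slc6a4 and the neutral amino acid carriers Slc6a17, Slc6a18 and Slc6a19 had log2 differences between -0.18 and 0.11.

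The Slc15 family carries peptides of few residues and histidine with protons. Slc15a3, a carrier of endolysosomes known from macrophages and dendritic cells, read 489, 567 and 445 in CNOT3KO mice, against 41.7, 43.5 and 75.998 in WT mice. The lowest CNOT3KO mouse was several times the highest WT mouse, and the 6.96-fold difference was the largest of the 52 genes (log2 difference 2.80, SE 0.20, limma adjusted p = 1.9e-05). With the constant at the median of all values it was 2.05 and with a constant of 1 it was 3.24. Its rise stood beside that of 9 of 10 macrophage markers. Their summed signal, in which the brightest markers weigh most, was 2.05 times that of WT. The median log2 difference of these markers was 1.04, and a link to Slc15a3 was not tested. Slc15a4, the related endolysosomal carrier of immune cells, read 559.97, 526 and 521 in CNOT3KO mice, against 635, 603 and 638 in WT mice. The groups did not overlap, but the log2 difference of -0.21 did not pass (limma adjusted p = 0.144). Slc15a2, a peptide carrier of the cell surface, read 77.6, 272 and 72.6 in CNOT3KO mice, against 296, 468 and 295 in WT mice. CNOT3KO mouse 2 came close to the lowest WT mice, and the log2 difference of -1.38 had an SE of 0.39 (limma adjusted p = 0.0192). The call was lost without CNOT3KO mouse 1 (-1.14) or 3 (-1.10) or WT mouse 2 (-1.17). The other probe sets of Slc15a2 read -0.43 and -0.04 and did not pass.

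Monocarboxylate carriers of the Slc16 family held 2 lower and 0 higher genes among 9 tested. The lower share was 22.2%, against 16.9% of all tested genes. Slc16a7, a high-affinity carrier of lactate and pyruvate, read 534, 548 and 506 in CNOT3KO mice, against 1353, 1305 and 1457 in WT mice. The mice of each group lay close together and far from the other group, at 39.6% of WT (log2 difference -1.34, SE 0.11, limma adjusted p = 2.8e-05), and the gene has 1 probe set. Slc16a1, the widespread lactate carrier, read 4201, 4769 and 5598 in CNOT3KO mice, against 3707, 3123 and 4871 in WT mice. The groups overlapped and the difference did not pass (log2 0.33, 95% interval -0.05 to 0.70), although it did without WT mouse 3 (0.50). Slc16a3, the carrier known for lactate export from glycolytic cells, was too dim to be tested, with means of 27.9 in CNOT3KO mice and 15.2 in WT mice, and Slc16a8, a lactate carrier of the retinal epithelium, had a log2 difference of 0.02.

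Slc16a4, a family member whose substrate is not settled, read 163, 206 and 165 in CNOT3KO mice, against 388, 528 and 421 in WT mice. The groups were well apart, at 42.9% of WT (log2 difference -1.22, SE 0.16, limma adjusted p = 0.00037), but its second probe set averaged 107 in CNOT3KO mice and 108 in WT mice. With the mean of both probe sets the log2 difference was -0.62. Slc16a10, the aromatic amino acid carrier, had probe sets that disagreed. The brightest averaged 614 in CNOT3KO mice and 492 in WT mice (log2 0.31, not called), and the next averaged 236 in CNOT3KO mice and 503 in WT mice (log2 -1.05, limma adjusted p = 0.00274 over all probe sets). The remaining tested one read -0.62 and did not pass. Averaging all its probe sets, with one too dim to be tested (mean signal 26.6) among them, gave -0.42, which was not called either. Slc16a9, a carnitine carrier, averaged 196 ± 92.2 in CNOT3KO mice and 301 ± 44.8 in WT mice (SD, n = 3 each), did not pass, and passed without CNOT3KO mouse 2 (-0.95). Slc16a12, a creatine carrier, Slc16a6, a carrier of ketone bodies, and Slc16a11 had log2 differences of 0.24, -0.05 and -0.14.

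The 24 genes too dim to be tested had mean signals over the 6 arrays between 3.65 and 45.0. They were Slc1a2 and Slc1a6, glutamate carriers of the brain, Slc3a1, the renal heavy chain, Slc7a11, Slc7a12, Slc7a14 and Slc7a15, Slc15a1 and Slc15a5, Slc16a3, Slc16a5, Slc16a13 and Slc16a14, Slc36a3, Slc38a4 and Slc38a5, and Slc6a5, Slc6a7, Slc6a11, Slc6a12, Slc6a14, Slc6a15, Slc6a16 and Slc6a21. In 3 of them the groups did not overlap (12.5%), against 13.8% of all 5424 genes set aside as dim. Slc7a14, a lysosomal relative of the arginine carriers, read 20.2, 22.8 and 33.8 in CNOT3KO mice and 11.2, 2.15 and 2.01 in WT mice. Slc15a5 read 33.2, 32.1 and 71.2 in CNOT3KO mice and 14.2, 18.3 and 1 in WT mice. Slc15a1, the intestinal peptide carrier, read 12.3, 8.63 and 8.33 in CNOT3KO mice and 17.1, 28.7 and 25.3 in WT mice. In the other 21 dim genes the groups overlapped.

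**Figure D4:**
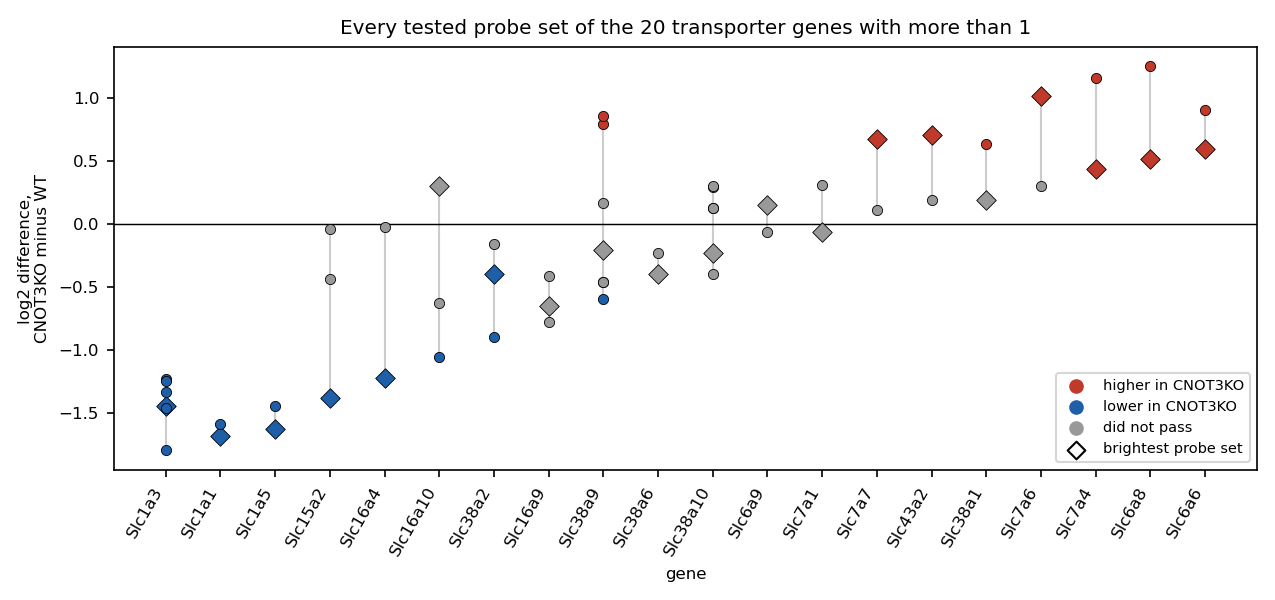
Log2 difference, CNOT3KO minus WT (vertical axis), of every tested probe set of the 20 transporter genes with more than 1 (horizontal axis). Diamonds are the brightest probe sets and colours give the call. All tested probe sets of Slc1a1, Slc1a3 and Slc1a5 were lower and all of Slc6a6, Slc6a8 and Slc7a4 higher, while those of Slc38a9 were called in both directions.

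Probe sets of one gene can read different ends or forms of its mRNA, and of the 20 genes with more than 1 tested probe set 3 were called lower by all (Slc1a1, Slc1a3 and Slc1a5) and 3 higher by all (Slc6a6, Slc6a8 and Slc7a4). Both probe sets of Slc1a1 and the second of Slc7a4 passed the filter only through the group where they were high, so their agreement is no check of those calls. In 4 genes a lower call stood beside a probe set that did not pass (Slc15a2, Slc16a4, Slc16a10 and Slc38a2), and in 4 a higher one did (Slc38a1, Slc43a2, Slc7a6 and Slc7a7). In 5 genes no probe set passed. Over all 76 genes 34 of 89 tested probe sets were called (38.2%), against 35.8% of all named probe sets tested. Slc38a9 was the only one called in both directions, which happened in 2.58% of all genes with more than 1 tested probe set. The 6 called genes with a single tested probe set, Slc15a3, Slc16a7, Slc36a1, Slc36a2, Slc43a1 and Slc7a10, have no such check.

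The genes were also grouped by cargo rather than by family. Carriers of glutamine and small neutral amino acids held 3 lower genes (Slc1a5, Slc38a2 and Slc7a10) and 0 higher ones among 7 tested. Their median log2 difference was -0.25, and the lower share was 42.9%, against 16.9% of all tested genes. Carriers of arginine and lysine, counted with the heavy chain Slc3a2, held 2 higher genes (Slc7a6 and Slc7a7) and 0 lower ones among 6 tested. Their median was 0.23, and the higher share was 33.3%, against 23.2% of all tested genes. The second probe sets of Slc7a6 and Slc7a7 did not pass. Leucine carriers held 1 higher gene (Slc43a2) and 1 lower gene (Slc43a1) among 5 tested. Lysosomal carriers held 2 higher genes (Slc15a3 and Slc36a1, 33.3%) and 0 lower ones among 6 tested, with a median of -0.10. Carriers of cystine and glutamate, counted with Slc3a2, held 2 lower genes (Slc1a1 and Slc1a3, 66.7%) and 0 higher ones among 3 tested. Slc1a1 was tested only through its WT signal. Carriers of lactate and pyruvate held 1 lower gene (Slc16a7, 33.3%) and 0 higher ones among 3 tested. Each of these shares rests on few genes.

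Genes that act with the carriers were read from 4 lists. Of 4 genes of lactate handling, 0 passed: Bsg and Emb, the chaperones of lactate carriers, had log2 differences of 0.15 and 0.47, and the lactate dehydrogenase genes Ldha and Ldhb 0.15 and 0.28. Emb passed without CNOT3KO mouse 3 (0.66) and Ldhb without CNOT3KO mouse 2 (0.38). Enzymes of glutamine, glutamate and arginine metabolism held 5 higher genes (Got1, Got2, Gpt, Arg1 and Asl) and 4 lower ones (Glud1, Asns, Gpt2 and Odc1) among 11 tested. These were 45.5% and 36.4%, against 23.2% higher and 16.9% lower of all tested genes. Got1, the cytosolic aspartate aminotransferase, averaged 469 ± 28.1 in CNOT3KO mice and 131 ± 28.6 in WT mice (SD, n = 3 each; log2 difference 1.70, limma adjusted p = 7.1e-05). Arg1, the arginase of alternatively activated macrophages, averaged 118 ± 31.0 in CNOT3KO mice and 22.9 ± 12.8 in WT mice (SD, n = 3 each), a log2 difference of 1.64 that was 0.88 with the constant at the median of all values. Its WT mean lay below the filter, so Arg1 was tested only through its CNOT3KO signal. Asl, which makes arginine, averaged 1208 ± 21.9 in CNOT3KO mice and 547 ± 57.5 in WT mice (SD, n = 3 each; log2 difference 1.12). Asns lost its call without CNOT3KO mouse 1 (-0.52) or 2 (-0.47) or WT mouse 1 (-0.55) or 3 (-0.49), and Gpt without CNOT3KO mouse 1 (0.45) or 3 (0.26) or WT mouse 1 (0.30) or 2 (0.42). Got2 was not called with the mean of its probe sets (0.24). It was not called either when probe sets with a letter suffix (_a_at, _s_at, _x_at or _f_at) were avoided (0.47). The log2 difference of Gpt turned negative by its other probe sets but did not pass. It was -0.57 by its brightest probe set without a letter suffix (limma adjusted p = 0.311).

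Among 28 tested genes of amino acid sensing by mTORC1, 4 were higher (Fnip2, Wdr59, Nprl2 and Lamtor3) and 3 lower (Seh1l, Castor1 and Sesn3). These shares of 14.3% higher and 10.7% lower were below those of all tested genes (23.2% and 16.9%). Fnip2, a partner of folliculin on the lysosome, averaged 1131 ± 132 in CNOT3KO mice and 634 ± 58.9 in WT mice (SD, n = 3 each; log2 difference 0.81). Seh1l and Wdr59, subunits of the GATOR2 complex, had log2 differences of -0.74 and 0.73, and with the mean of all probe sets Seh1l was no longer called (-0.30). Nprl2 lost its call without CNOT3KO mouse 1 (0.39) or 3 (0.44) or WT mouse 3 (0.41). Lamtor3 lost it without any 1 CNOT3KO mouse (0.28 to 0.39) and without WT mouse 1 (0.27) or 2 (0.35). Sesn3, a sestrin, turned to 0.28 when its probe sets were averaged, a value that did not pass. Mtor itself (0.27) and Rptor (0.26) did not pass. The amino acid starvation response held 4 higher genes (Chac1, Eif2ak4, Vldlr and Cebpb) and 4 lower ones (Cebpg, Nupr1, Ddit3 and Atf4) among 10 tested. Chac1, which degrades glutathione, averaged 1854 ± 373 in CNOT3KO mice and 952 ± 72.9 in WT mice (SD, n = 3 each; log2 difference 0.93), and Eif2ak4, the kinase that senses uncharged tRNA, had a log2 difference of 0.77. Vldlr, a lipoprotein receptor gene, had the same value, but it was not called by its brightest probe set without a letter suffix (0.25). Ddit3 was not called when its probe sets were averaged (-0.33). Cebpb lost its call without CNOT3KO mouse 1 (0.45) or 3 (0.39) or WT mouse 2 (0.44) or 3 (0.33). Atf4, the transcription factor of this response, had a log2 difference of -0.47 and lost its call without CNOT3KO mouse 1 (-0.45) or WT mouse 2 (-0.51) or 3 (-0.31). Over the 4 lists 13 of 53 tested genes were higher (24.5%, against 23.2% of all tested genes) and 11 lower (20.8%, against 16.9%).

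**Figure D5:**
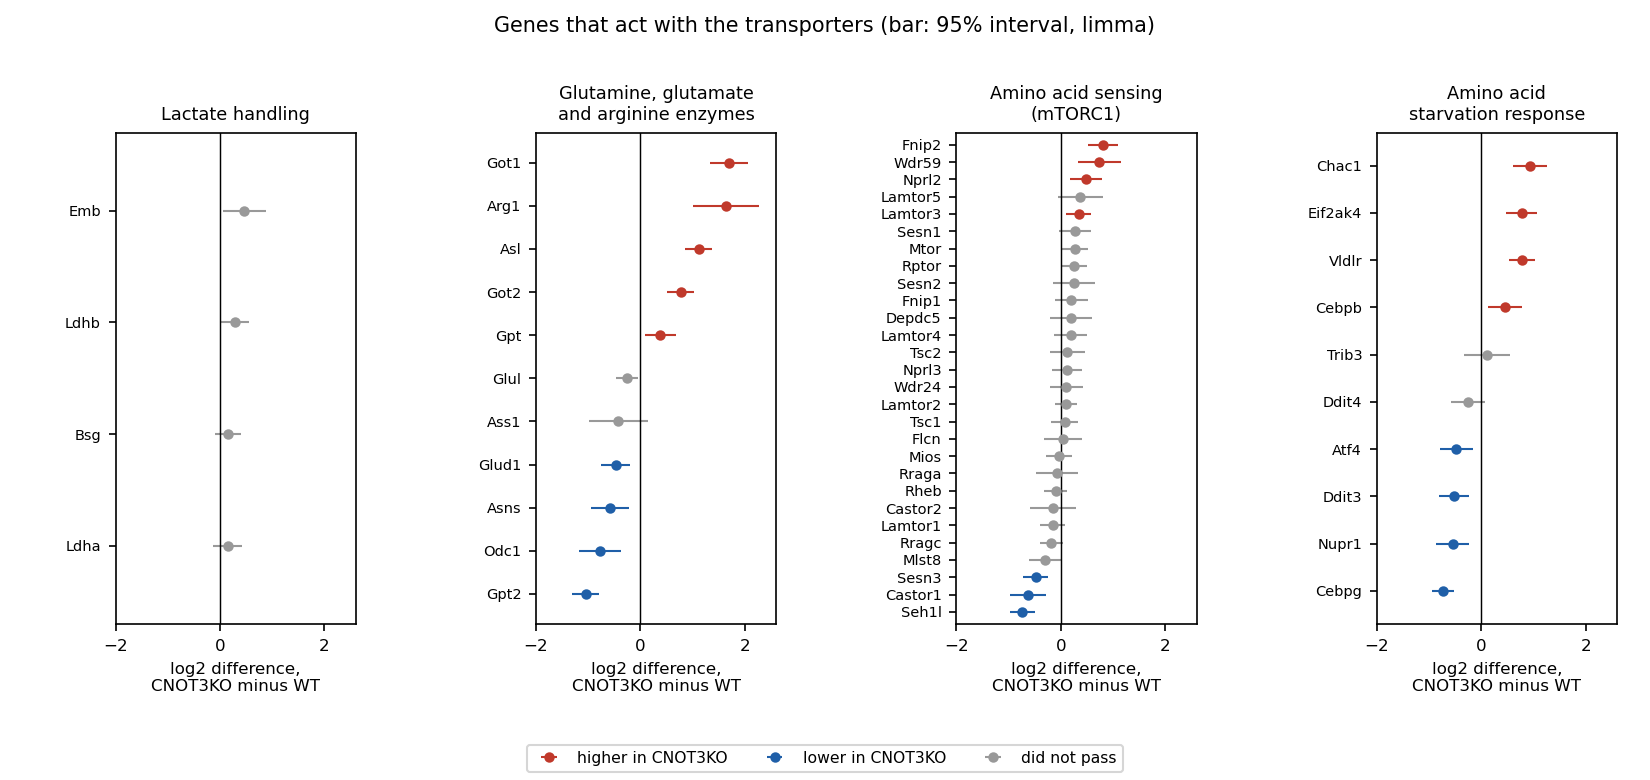
Log2 difference, CNOT3KO minus WT (horizontal axis), with its 95% interval from limma, for the tested genes of 4 lists that act with the carriers. Got1, Arg1 and Asl lie above 1, Gpt2 lies at -1.05, and the lists of sensing and starvation genes spread to both sides of 0.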

How the data were processed

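RNA from 1 fat pad sample per mouse, 500 ng of total RNA each, was hybridised to 1 Affymetrix array per mouse, per the labels' protocols. Per the submitters' processing notes, MAS5 made the deposited values, which are intensities on a linear scale. The sources used here name no version, settings or scaling target. Of 45037 probe sets 34945 carried 1 gene name, 932 several and 9160 none here. Each gene was read from its brightest probe set, and those under the 40th percentile of mean signal (51.6) were set aside, which left 12769 genes.

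limma (version 3.58.1, R 4.3.3) was run on log2(signal + 22.5), where 22.5 is the 25th percentile of the deposited intensities. The fit used lmFit and trended eBayes, two-sided, with Benjamini-Hochberg adjustment over all tested genes. Probe sets tested singly used the same fit over all named probe sets. The mean of a gene's probe sets took in those too dim to be tested. The median SE of a log2 difference was 0.15. The fit was tested on simulated data. Mouse numbers 1 to 3 occur in both groups, and nothing says that they mark a shared litter or day. Deviations of same-numbered mice correlated at 0.04 to 0.11 over genes, so no block was used in the fit reported.

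The genes, the lists and the rule for values were chosen with earlier results of these data known. By that rule, values on all arrays are given for called genes with non-overlapping groups and a log2 difference of at least 1 in size, and for the brightest gene of each family. For 3 genes of each list that acts with the carriers, the log2 difference is given, with means for some. Values on all arrays of other genes, and other genes named in counts, were added after their values were seen. Symbols were checked in a RefSeq table of GRCm38.p6, which matched 34741 of the 34945 named probe sets. Promoter windows come from RefSeq tables of the same build. Python 3.11.15 with pandas 2.3.3, numpy 2.4.6 and matplotlib 3.10.9 was used for tables and figures. Groups of 3 are too small for an outlier test.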

Additional observations from a re-analysis of the deposited data

How the results depend on the processing

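Of the 18 called transporter genes 10 were called under every alternative tried, and none of the 18 changed sign under any of them. Leaving out 1 mouse at a time gave 6 to 10 higher and 7 to 11 lower transporter genes, and 13 of the 18 kept their call without any 1 mouse. The 5 that did not are Slc15a2, Slc38a2, Slc6a6, Slc6a8 and Slc7a4. Among the 34 genes not called, 12 passed under at least 1 alternative. At an adjusted p under 0.01 the counts were 4 higher and 7 lower transporter genes, 1895 and 1249 of all genes, and 8 and 7 of the genes that act with the carriers. At an adjusted p under 0.05 with at least 1.5-fold, 6 transporter genes were higher and 8 lower. The counts were then 1919 and 1317 of all genes, and 9 and 5 of the genes that act with the carriers. With the mouse number as a replicate block 8 transporter genes were higher and 9 lower. The block ended the calls of Slc6a6 (log2 0.60) and Slc38a2 (-0.40) and added those of Slc38a6 (-0.39), Glul (-0.26) and Lamtor5 (0.37), with no other call changed among the transporters and the genes that act with them. Every probe set tested singly, chosen after seeing the data, gave 11 transporter genes with a higher and 11 with a lower call, and 3297 and 2735 of all genes. Averaging all probe sets of a gene turned Gpt to -0.092 and Sesn3 to 0.28, and avoiding probe sets with a letter suffix turned Gpt to -0.57. None of these values passed. The cause of these turns was not tested. Dim signals limit 24 of the 76 genes, and no detection calls were used here.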
